A study of Mus musculus with 12 samples.

Results

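Cluster 6 was the cluster of non-mitotic intermediate progenitor cells (IPCs) in single-nucleus RNA sequencing (snRNAseq) of the mouse cerebral cortex after prenatal alcohol exposure. Its members were all nuclei that the authors had placed in Cluster 6, which came to 3764 of 50550 nuclei, or 7.45%. The nuclei came from 11 embryos, with 2210 from 5 saline embryos and 1554 from 6 EtOH embryos. Single embryos gave between 184 and 614 nuclei. Cortices of C57BL/6J embryos were collected at embryonic day 14 as the labels give it, after daily intraperitoneal injection of the pregnant dam with saline (dams S1 and S2) or with EtOH in saline (dams E1 and E2). Dams S1 and E1 formed batch 1 and dams S2 and E2 batch 2, as the labels give it, and each embryo is named here by its dam and its number, such as S1-1. The exposure reached the whole dam, so that no effect within a cell type could be told apart from effects on its neighbours, and littermates share a dam. A further saline embryo, S2-3, was not used here. The p-values below take littermates as independent embryos, with 2 dams per treatment. The library labelled S2-4, a saline embryo, had a profile near that of the EtOH embryos in Cluster 6, and the main treatment comparisons are given with and without it.

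Intermediate progenitors arise from radial glial cells (RGCs) at the ventricle, move to the subventricular zone, and divide to give projection neurons (PNs) rather than renewing themselves for long. The T-box transcription factor Eomes, also called Tbr2, defines them. The proneural factor Neurog2 precedes Eomes in the cascade, and Neurod2, Neurod6 and Tbr1 follow it in young PNs. The IPCs of the study fell into 2 clusters, the mitotic Cluster 17 and the non-mitotic Cluster 6, and the clusters nearest to them are the non-mitotic RGC Cluster 12 and the early PN Cluster 9.

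The promoters of Eomes and of Kif26b, 2 of the 3 marker genes that define Cluster 6 here (Kif26b, Eomes and Mfap4), are taken from the RefSeq table of build GRCm38.p6 and given because the data below turn on them. The 250 bases before each start are shown, on the + strand, with the CCAAT box and its reverse complement ATTGG in capitals.
Eomes, chr9:118477939-118478188: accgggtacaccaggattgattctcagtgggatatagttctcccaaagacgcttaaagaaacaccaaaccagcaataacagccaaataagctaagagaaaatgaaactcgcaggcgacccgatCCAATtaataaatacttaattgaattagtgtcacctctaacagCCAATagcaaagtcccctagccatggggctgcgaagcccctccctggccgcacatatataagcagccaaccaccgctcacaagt
Kif26b, chr1:178528875-178529124: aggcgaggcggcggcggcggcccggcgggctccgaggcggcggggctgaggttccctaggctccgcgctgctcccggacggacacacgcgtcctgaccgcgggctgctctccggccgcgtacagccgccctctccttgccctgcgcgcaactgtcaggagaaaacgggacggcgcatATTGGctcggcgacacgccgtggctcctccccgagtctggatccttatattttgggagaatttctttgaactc

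The Eomes window held 2 matches to CCAAT or ATTGG and the Kif26b window held 1, where 34.5% of the 27025 windows in the table held at least 1 and 10.5% at least 2. The E-box CANNTG, the kind of site that proneural factors bind, had 0 matches in the Eomes window and 1 in the Kif26b window, and 66.0% of all windows held at least 1. These matches are a description of the letters in these windows.

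The label of IPCs rests on Eomes, and Kif26b and Mfap4 were given as further markers. Their levels are therefore a description and no check of the label of Cluster 6. Eomes lay at 414 ± 40.4 CPM (UMIs of the gene per 1000000 UMIs of the cluster in an embryo, mean ± SD, n = 11 embryos) and was higher there than in any other of the 25 clusters. The mitotic IPC Cluster 17 came next with 202 ± 47.4 CPM, and Eomes was higher in Cluster 6 than in Cluster 17 in 11 of 11 embryos. Kif26b, a kinesin family member whose gene spans 410 kb, lay at 1386 ± 131 CPM against 763 ± 145 CPM in Cluster 17. Mfap4, a protein of extracellular microfibrils, lay at 78.5 ± 10.6 CPM against 41.8 ± 9.52 CPM in Cluster 17. Because these nuclei were clustered on their expression, differences between clusters are given as a description without a test.

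Of 19 IPC markers in the tables, 14 had their highest level in Cluster 6 and 18 were among the 3 highest clusters. Among them were Neurog2 (136 ± 18.6 CPM), the antiproliferative gene Btg2 (98.4 ± 9.16 CPM), the growth arrest gene Gadd45g (87.7 ± 17.9 CPM), the Notch ligand Dll1 (48.1 CPM), the Notch modifier Mfng (127 ± 17.8 CPM) and the corepressor Rcor2 (205 ± 17.9 CPM). Insm1, a zinc finger factor of basal progenitors, was higher in Cluster 17 (33.8 CPM) than in Cluster 6 (20.5 ± 4.64 CPM). None of the 24 RGC markers was highest in Cluster 6, and their summed level of 2236 CPM compared with 12383 CPM in Cluster 12. Hes1, the Notch effector that keeps RGCs undifferentiated, lay at 4.74 ± 1.93 CPM, against 26.3 ± 14.3 in the mitotic IPCs of Cluster 17 and 69.4 ± 16.4 in the RGCs of Cluster 12. The summed level of 24 PN markers was 11527 CPM, close to the 11040 CPM of Cluster 17 and below the 22048 CPM of Cluster 9.

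The 15 genes with the largest ratio of the level in Cluster 6 to that in the next highest cluster, among the 6598 genes with at least 20 CPM, were Kif19a, Nfatc2, Btbd17, Prmt8, Phldb2, Qsox1, Eomes, Stat3, Gadd45g, Mfap4, Kif26b, Gm26953, Gm38399, Plcxd2 and Lzts1. Kif19a, a motor that shortens microtubules in cilia, had the largest ratio, 2.89, at a low level of 25.5 ± 9.56 CPM. Nfatc2, a calcium-regulated transcription factor, had a ratio of 2.57 at 55.8 ± 10.9 CPM. Prmt8, a brain arginine methyltransferase, had a ratio of 2.40 at 268 ± 30.7 CPM. Lzts1, which controls the detachment of newborn neurons from the ventricular surface, was the most abundant of the 15 after Kif26b, at 581 ± 80.5 CPM, with a ratio of 1.74. For 11 of these 15 genes the next highest cluster was Cluster 17. In all, 749 of the 6598 genes had their highest level in Cluster 6.

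**Figure D1:**
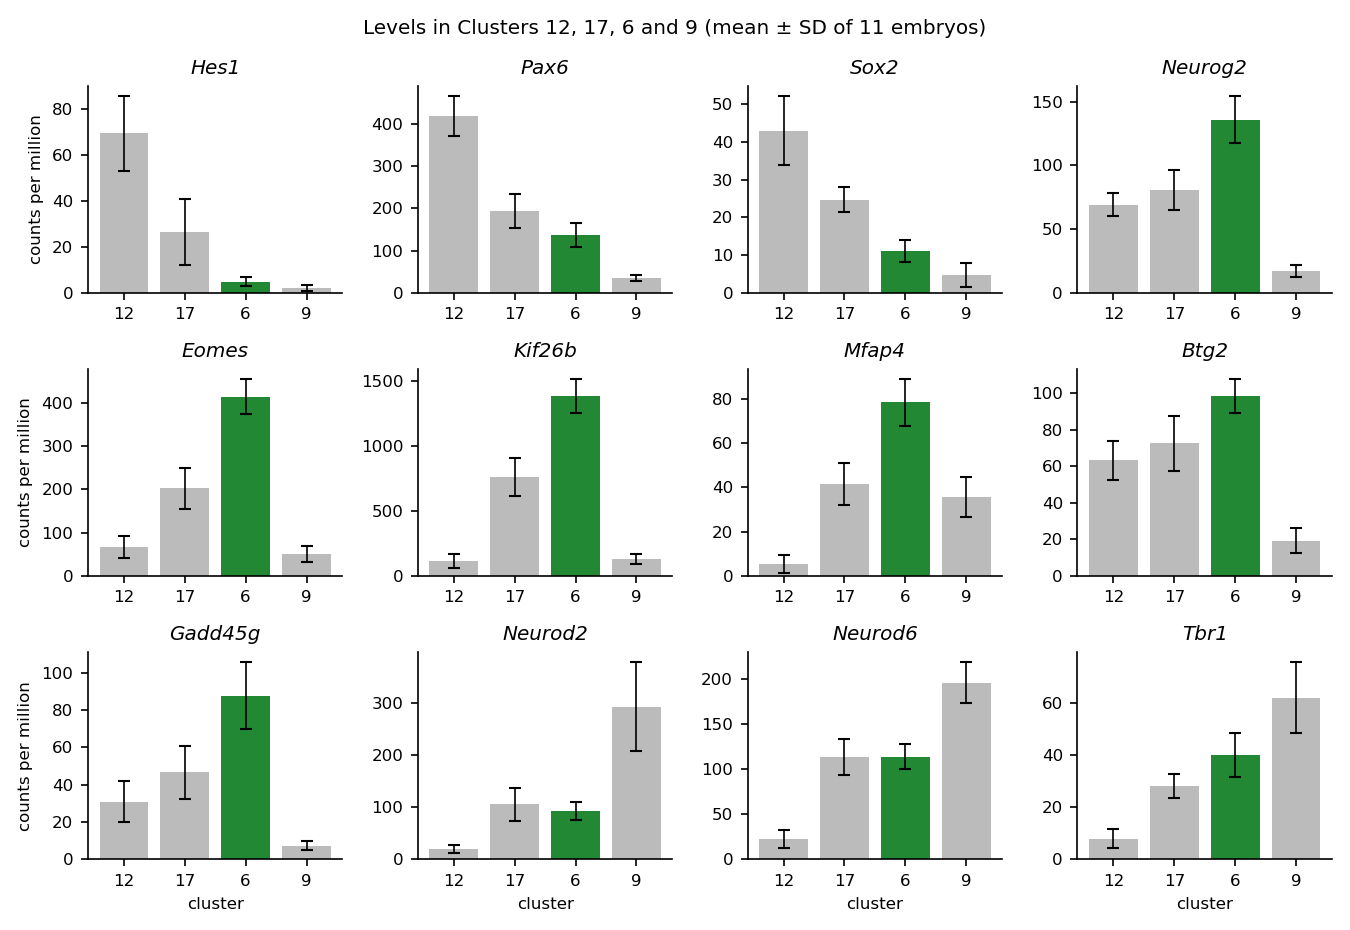
Levels of 12 genes in the RGC Cluster 12, the mitotic IPC Cluster 17, the non-mitotic IPC Cluster 6 (green) and the early PN Cluster 9, as CPM on a linear axis from 0. Bars are the mean and whiskers the SD of 11 embryos. Of these 4 clusters, Hes1, Pax6 and Sox2 were highest in Cluster 12, Neurog2, Eomes, Kif26b, Mfap4, Btg2 and Gadd45g in Cluster 6, and Neurod2, Neurod6 and Tbr1 in Cluster 9.

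Shares of nuclei with at least 1 UMI of a gene were compared after each nucleus was thinned to 2000 UMIs, which left out 12 saline and 20 EtOH nuclei with fewer. Eomes was detected in 53.2% ± 2.40 of Cluster 6 nuclei (78.6% without thinning) and in 1.92% of nuclei in the interneuron Cluster 5, which should lack it. Kif26b was detected in 64.4% ± 3.64 of Cluster 6 nuclei and in 7.31% of Cluster 5 nuclei. Mfap4 was detected in 14.0% ± 1.51 of Cluster 6 nuclei and in 0.826% of Cluster 5 nuclei. Median depth was 5494 UMIs per nucleus in Cluster 6 and 6652 in Cluster 5. The interneuron gene Gad2 was found in 7.87% of Cluster 6 nuclei and in 83.5% of Cluster 5 nuclei.

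The label non-mitotic was itself given from proliferation genes such as Top2a and Mki67, whose levels are therefore a description and no check of it. Top2a, the topoisomerase of dividing cells, had a level of 28.4 ± 16.6 CPM in Cluster 6 and 789 ± 109 CPM in Cluster 17. Mki67, which encodes the proliferation antigen Ki-67, had 32.7 ± 12.3 CPM and 308 ± 49.7 CPM, respectively. In thinned nuclei, Top2a was detected in 3.82% ± 1.82 of Cluster 6 nuclei, and in 4.77% and 4.49% of nuclei in the postmitotic interneuron Clusters 5 and 11. Mki67 was detected in 5.52% ± 2.09 of Cluster 6 nuclei, and in 5.02% and 5.01% of nuclei in Clusters 5 and 11. The shares in Cluster 6 were thus close to those in postmitotic cells and were not read as expression. The summed level of 12 G2/M genes was 135 CPM, against 1673 CPM in the mitotic IPCs, 229 CPM in the RGCs of Cluster 12 and 163 CPM in the interneurons of Cluster 5.

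The nuclei of Cluster 6 were spread along the path from RGCs to PNs. To describe this, each thinned nucleus was projected on the line between the mean profile of Cluster 12 (position 0) and that of Cluster 9 (position 1), with the 437 genes on the gene lists left out of the line. Cluster 6 had a mean position of 0.593 ± 0.0200 (SD, n = 11 embryos), and Cluster 17 of 0.461 ± 0.0234. Within an embryo the SD of position over Cluster 6 nuclei was 0.227 on average, and the 10th and 90th percentiles over all nuclei were 0.270 and 0.874.

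When the nuclei of each embryo were divided by position into 4 bins of equal size, genes of RGCs and IPCs declined together. The line ran from RGCs to early PNs, so it largely set these directions, although the genes named were left out of it. The values are a description and show no order among these genes. Eomes had 583 ± 90.6 CPM in the first bin and 249 ± 40.1 CPM in the fourth, and was lower in the fourth in 11 of 11 embryos. Neurog2 had 252 ± 41.5 CPM in the first bin and 44.3 ± 12.6 CPM in the fourth. Pax6, an RGC transcription factor, and Btg2 went from 218 ± 57.1 to 72.8 ± 17.4 CPM and from 172 ± 11.6 to 40.9 ± 8.64 CPM. Each of these 4 genes was lower in the fourth bin in 11 of 11 embryos.

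Genes of young neurons went in the opposite direction, which the line also largely set. Dcx, a microtubule-binding protein of migrating neurons, had 217 ± 44.7 CPM in the first bin, 590 ± 73.5 in the second, 814 ± 94.2 in the third and 823 ± 72.2 in the fourth. Tbr1, a factor of deep-layer PNs, had 10.0 ± 6.41 CPM in the first bin and 69.2 ± 14.2 CPM in the fourth. Neurod2 and Neurod6, neuronal differentiation factors, had 59.7 ± 13.2 and 52.9 ± 17.4 CPM in the first bin and 125 ± 38.4 and 144 ± 18.4 CPM in the fourth. Each of these 4 genes was higher in the fourth bin in 11 of 11 embryos.

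The markers of Cluster 6 differed in where along this path they peaked. Kif26b was highest in a middle bin in 11 of 11 embryos, with means of 1025, 1850, 1653 and 1003 CPM over the 4 bins. Mfap4 was highest in a middle bin in 9 of 11 embryos, with means of 49.3, 81.6, 96.2 and 82.9 CPM. Eomes thus declined across bins in which Kif26b was at its highest.

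**Figure D2:**
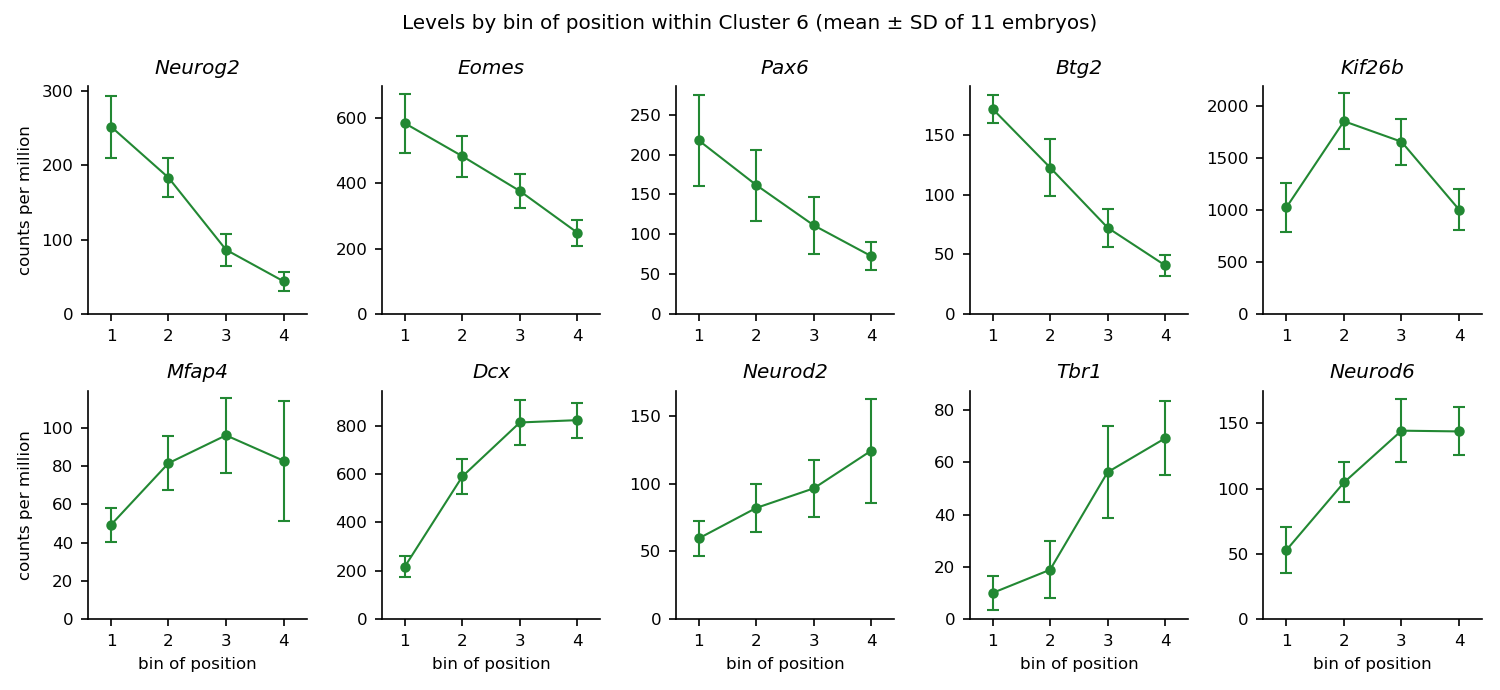
Levels of 10 genes in Cluster 6 nuclei divided within each embryo into 4 bins of position between Cluster 12 and Cluster 9, as CPM on linear axes from 0. Points are the mean and whiskers the SD of 11 embryos. Neurog2, Eomes, Pax6 and Btg2 declined, Dcx, Neurod2, Tbr1 and Neurod6 rose, and Kif26b was highest in the second bin at 1850 CPM.

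One saline library stood apart from the other 4, and it bears on each comparison of treatments. It was singled out with the treatment labels known and after the data were seen. In a principal component analysis of the log2 CPM of Cluster 6, the first component held 33.9% of the variance. The saline libraries S1-1, S1-2, S2-1 and S2-2 had scores of -0.35, -0.39, -0.53 and -0.30, the 6 EtOH libraries had scores between 0.16 and 0.29, and the library labelled S2-4 had a score of 0.22. The library labelled S2-4 thus lay among the EtOH embryos. Genes spanning over 100 kb took 56.5%, 55.9%, 55.4% and 54.2% of the UMIs in the other 4 saline libraries, 52.0% in the library labelled S2-4 and 52.0% to 53.1% in the EtOH embryos. The library was kept under its label. It was set apart for lying among the EtOH embryos, so leaving it out widens the separation of the groups by choice. Calls and p-values without it are therefore given below as a description and not as independent tests.

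The genes that showed this most clearly were the 5 per direction with the smallest p in a fit without the library labelled S2-4, and they were chosen after their values were seen. Slc24a5, an ion exchanger known from pigment cells, had 62.2, 49.0, 59.2 and 54.1 CPM in S1-1, S1-2, S2-1 and S2-2, 220 CPM in the library labelled S2-4, and between 180 and 251 CPM in the EtOH embryos. Fndc7, a fibronectin type III domain gene, had 5.89, 3.16, 3.89 and 4.92 CPM in those 4 saline libraries, 33.3 CPM in the library labelled S2-4, and between 34.9 and 42.4 CPM in the EtOH embryos. Sox11, a transcription factor of newborn neurons, had 597, 613, 633 and 608 CPM, 369 CPM, and between 321 and 432 CPM, in the same order. In each case the library labelled S2-4 lay within the range of the EtOH embryos or next to it, and the other 4 saline libraries did not overlap with the EtOH embryos. Fndc7 passed the filter on low counts in that fit through its EtOH level, so its place among these genes is a description. Slc24a5 overlaps Myef2 on the other strand. The use of strand in counting is not spelled out in the sources used here, which say that Cell Ranger was run with default parameters, and whether such pairs shared reads was not tested. The antisense or long intergenic RNAs Gm42439, Gm15563 and Gm19710 shared this pattern upward, and Lingo2, Nrg3, Ralyl and Kcnd2, neuronal genes of 514 to 1245 kb, shared it downward. The same limit holds for Gm42439, which overlaps Auts2 on the other strand, for Gm15563, which overlaps Usp3, and for Gm19710, which overlaps Hax1 and Ubap2l.

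Over all 1498 genes called in that fit, the level in the library labelled S2-4 was nearer to the EtOH mean than to the mean of the other saline embryos for 1376, or 91.9%. The other saline embryos were nearer to the EtOH mean for 3.47% to 17.6% of these genes, and the EtOH embryos for 84.2% to 94.3%. The genes were called from these 10 embryos, so the shares of these embryos were largely set by the choice of genes. In Clusters 17, 9 and 12 the library labelled S2-4 was nearer to the EtOH mean for 79.5%, 84.9% and 80.6% of the same genes. For a comparison that did not use the left-out embryo, each embryo was set against the genes with an unadjusted p under 0.05 in the fit without it. The library labelled S2-4 was nearer to the opposite treatment for 82.9% of 3131 genes, and the other 10 embryos for 13.6% to 37.8%.

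**Figure D3:**
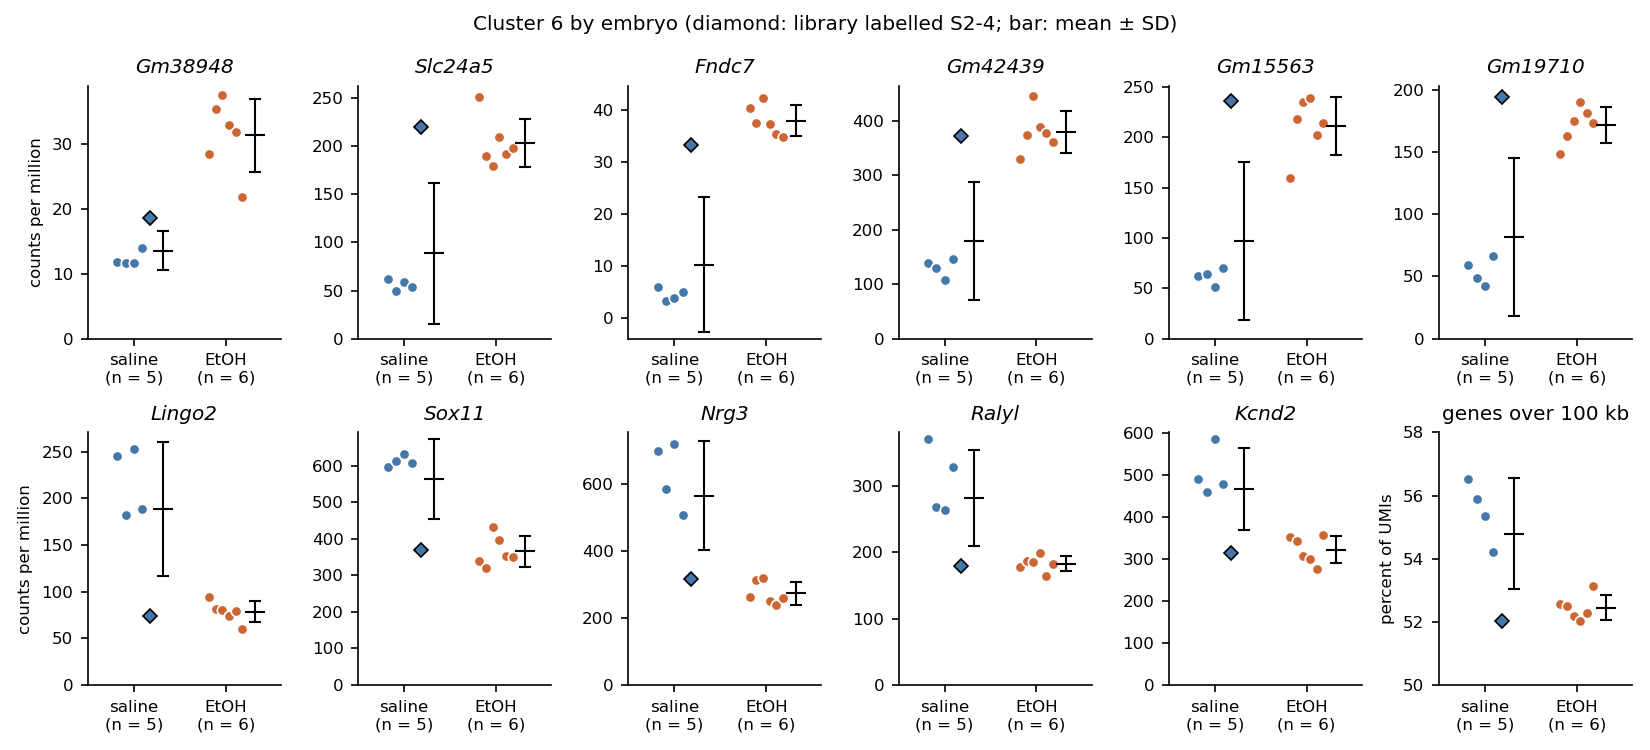
Levels per embryo in Cluster 6 of Gm38948 and of 10 genes chosen after their values were seen, as CPM on linear axes, and the percent of UMIs from genes spanning over 100 kb on an axis from 50 to 58. Each point is 1 embryo (5 saline in blue, 6 EtOH in orange), the diamond is the library labelled S2-4, and the bar is the mean ± SD of the group. In all panels but that of Gm38948, where it had 18.7 CPM, the diamond lies within the range of the EtOH points or next to it.

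Whether prenatal alcohol changed the number of these progenitors was asked from their share of nuclei. Cluster 6 made up 8.04%, 8.08%, 5.15%, 6.94% and 7.91% of nuclei in S1-1, S1-2, S2-1, S2-2 and S2-4. In the EtOH embryos its share lay between 6.02% and 8.99%, with a median of 7.98%. The groups overlapped, with means of 7.22% ± 1.2496 (SD, n = 5) and 7.82% ± 1.03 (SD, n = 6), and a two-sided exact permutation test over the 462 splits gave p = 0.411. The difference was 0.773 percentage points without the library labelled S2-4 (exact permutation p = 0.333), and 0.0823 to 0.962 with any 1 embryo left out. Within batches, the saline and EtOH means were 8.06% and 8.16% in batch 1 and 6.67% and 7.66% in batch 2. Among IPC nuclei, that is Clusters 6 and 17 together, Cluster 6 made up 78.1% ± 4.397 in saline and 79.6% ± 2.91 in EtOH embryos (exact permutation p = 0.485). This share went from 82.3% with saline to 78.8% with EtOH in batch 1 and from 75.2% to 80.1% in batch 2, so that the direction differed between batches. The difference in this share was 1.20 percentage points without the library labelled S2-4 (exact permutation p = 0.629), and 0.402 to 3.24 with any 1 embryo left out. A share of nuclei cannot tell a change in number from a change in recovery.

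Nuclei of Cluster 6 from EtOH embryos held fewer UMIs. The median was 7387, 6929, 6480, 6854 and 4944 UMIs per nucleus in S1-1, S1-2, S2-1, S2-2 and S2-4. In the EtOH embryos it lay between 3188 and 5306, with a median of 4764. The difference between the group means, -1958 UMIs (6519 ± 938 in saline and 4560 ± 736 in EtOH embryos), gave an exact permutation p of 0.00649 and, with labels exchanged only within batches, 0.0143. It was -2352 UMIs without the library labelled S2-4 (exact permutation p = 0.00476). It was found over all nuclei too, where the medians were 6325 to 9051 in saline and 4072 to 6911 in EtOH embryos. Depth per nucleus therefore moved with treatment in every comparison below, and S2-4 was the saline library with the lowest depth.

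The share of thinned Cluster 6 nuclei with a UMI of Top2a or Mki67 was 9.97%, 5.16%, 11.6%, 15.96% and 11.2% in the saline embryos in the order above. In the EtOH embryos it lay between 5.80% and 8.97%, with a median of 7.23%. The groups overlapped through S1-2. Their means of 10.8% ± 3.87 and 7.25% ± 1.09 gave an exact permutation p of 0.0541, and 0.0429 with labels exchanged only within batches. Without S1-2 the difference was -4.94 percentage points (exact permutation p = 0.00476), but removing the only overlapping saline embryo itself sets the groups apart. Leaving out any other single embryo gave an exact permutation p between 0.0556 (without E2-2) and 0.129 (without S2-2, where the difference was -2.24). The means differed by -3.43 percentage points without the library labelled S2-4 (exact permutation p = 0.0905, and 0.0889 within batches). The means were 7.56% and 7.12% in batch 1 and 12.9% and 7.31% in batch 2. The same shares in the postmitotic interneuron Clusters 5 and 11 were 11.6% ± 2.95 and 10.0% ± 2.02 in saline and 6.70% ± 1.84 and 6.82% ± 1.26 in EtOH embryos. The part of free RNA in these shares was not tested.

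Mean position between Clusters 12 and 9 was 0.613, 0.615, 0.592, 0.607 and 0.595 in the saline embryos and between 0.563 and 0.621 in the EtOH embryos, with a median of 0.576. The group means of 0.604 ± 0.0105 and 0.584 ± 0.0220 gave an exact permutation p of 0.0866, and 0.110 within batches. In batch 1 the means were 0.614 and 0.571, and in batch 2 0.598 and 0.590. Leaving out any single embryo but E2-4 gave an exact permutation p between 0.0794 (without E2-2) and 0.162 (without S1-1 or S1-2). Without E2-4, the EtOH embryo with the highest value, the difference was -0.0280 (exact permutation p = 0.0238), and without the library labelled S2-4 it was -0.0230 (exact permutation p = 0.0952). It was -0.0100 without thinning (exact permutation p = 0.335) and -0.0128 when each embryo was placed between its own Clusters 12 and 9 (exact permutation p = 0.329). The 2 end clusters also differed with treatment, with mean positions of 0.0498 in saline and -0.0415 in EtOH embryos for Cluster 12 and of 0.973 and 1.02 for Cluster 9.

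**Figure D4:**
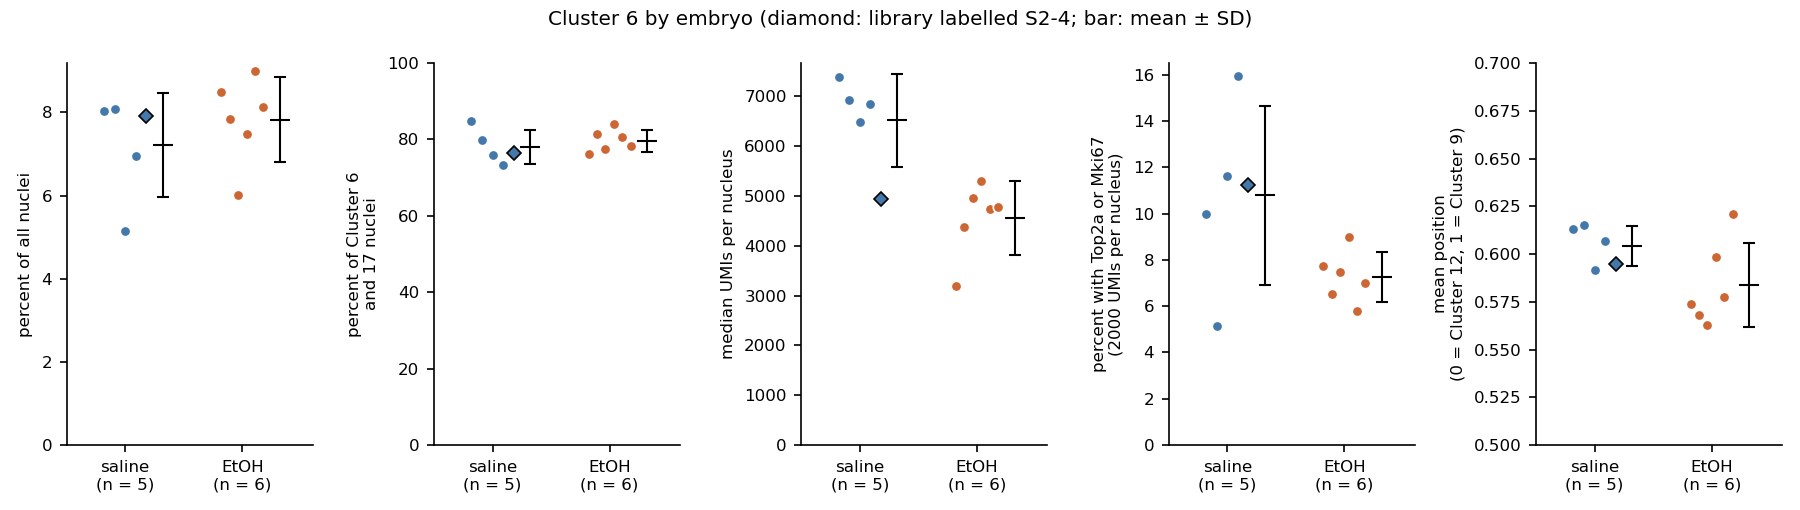
Share of all nuclei, share of Cluster 6 and 17 nuclei, median UMIs per nucleus, share of thinned nuclei with Top2a or Mki67, and mean position (axis from 0.5 to 0.7) of Cluster 6 in each embryo. Points are embryos (5 saline in blue, 6 EtOH in orange), the diamond is the library labelled S2-4, and bars are the mean ± SD. The groups overlap in all panels, and in median UMIs per nucleus S2-4, at 4944, is the only saline library within the EtOH range.

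Gene expression was compared between treatments on counts summed per embryo with edgeR's quasi-likelihood test and Benjamini-Hochberg adjustment, and a gene was called at an adjusted p under 0.05 with a fold change below 0.8 or above its inverse. With all 11 embryos, 1 of 10785 genes was called (0.00927%), and it was higher. At an unadjusted p under 0.05, 2292 genes passed, of which 1260 were higher (11.7%) and 1032 lower (9.57%). Levels did not overlap between treatments for 197 genes (1.83%). The called gene was Gm38948, a long intergenic RNA gene at chr7:15971883-15984654 (GRCm38, + strand) within the locus of Bicra on the other strand. It had 11.8, 11.7, 11.7, 13.9 and 18.7 CPM in the saline embryos and between 21.9 and 37.7 CPM in the EtOH embryos, with a median of 32.4. The groups did not overlap, and the log2 fold change was 1.15 ± 0.17 (SE, edgeR adjusted p = 0.0239). It was 1.26 ± 0.17 without the library labelled S2-4 (adjusted p = 2.67e-05). The call was lost in 9 of the 11 fits that left out 1 embryo, with adjusted p between 0.0535 and 0.160, and with counts thinned to the smallest total (0.0628), in batch 2 alone (0.475) and with median UMIs per nucleus as a covariate (0.995), a setting chosen after seeing the data. Its log2 fold change stayed higher in EtOH embryos in these fits, at 1.08 to 1.26 with 1 embryo left out, 0.80 with thinning, 1.02 in batch 2 and 1.01 with the covariate. Median UMIs per nucleus moved with treatment, so the fit with that covariate cannot separate depth from treatment.

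The next 4 genes by p lay just past the threshold and were picked after their values were seen. Kcnma1, a calcium-activated potassium channel, had a log2 fold change of -1.05 ± 0.18 (edgeR adjusted p = 0.0560). Ccdc47, an endoplasmic reticulum protein, and the long intergenic RNA gene Gm26699 had 0.64 ± 0.11 and 1.22 ± 0.20 at the same adjusted p. Gjc1, a gap junction protein, had -0.50 ± 0.09 (adjusted p = 0.0587). Gm26699 had 22.5 to 26.7 CPM in the other 4 saline libraries, 55.3 CPM in the library labelled S2-4 and 62.7 to 82.4 CPM in the EtOH embryos, and it overlaps Luc7l2 on the other strand. All 4 genes were called without the library labelled S2-4, with log2 fold changes of -1.18 for Kcnma1, 0.70 for Ccdc47, 1.51 for Gm26699 and -0.56 for Gjc1.

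Eomes, Kif26b and Mfap4, the 3 genes that mark Cluster 6, were not called with all embryos or without the library labelled S2-4. Eomes had 450, 488, 397, 406 and 416 CPM in the saline embryos and between 343 and 440 CPM in the EtOH embryos, with a median of 402, and a log2 fold change of -0.18 ± 0.08 (edgeR adjusted p = 0.235). Kif26b had 1339, 1381, 1349, 1343 and 1527 CPM in the saline and 1166 to 1670 CPM in the EtOH embryos (log2 fold change -0.06 ± 0.08, adjusted p = 0.689). Mfap4 had 82.3, 71.4, 61.4, 102.5 and 71.6 CPM in the saline and 72.1 to 87.7 CPM in the EtOH embryos (-0.04 ± 0.11, adjusted p = 0.877). The groups overlapped for all 3 genes. With the library labelled S2-4 left out, the log2 fold changes were -0.21 ± 0.09 for Eomes, -0.05 ± 0.08 for Kif26b and -0.09 ± 0.12 for Mfap4 (edgeR adjusted p = 0.107, 0.749 and 0.662). In batch 1 alone Eomes was called lower, at -0.37 (edgeR adjusted p = 0.0468), in a fit that called 896 of 10778 genes. That fit set S1-1 and S1-2 of dam S1 against E1-1 and E1-2 of dam E1. Treatment could not be told apart from dam there.

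Of the 15 genes most specific to Cluster 6, 0 were called with all embryos, and 4 were called higher and 0 lower without the library labelled S2-4, beside 8.84% and 5.14% of all genes. Kif19a had 11.2, 10.4, 15.1 and 25.4 CPM in the other 4 saline libraries, 27.0 CPM in the library labelled S2-4 and 23.6 to 37.7 CPM in the EtOH embryos. Kif19a had means of 17.8 CPM in saline and 31.9 CPM in EtOH embryos. The saline mean lay below the CPM minimum for the list, which was applied to the mean of all embryos. Kif19a thus entered the list through its EtOH level, and its place among the 4 is a description. The log2 fold change of Kif19a was 0.81 with all embryos (edgeR adjusted p = 0.0833) and 1.00 ± 0.21 without the library labelled S2-4 (adjusted p = 0.00357). Btbd17, Qsox1 and Gadd45g had 0.77 ± 0.15, 0.47 ± 0.13 and 0.37 ± 0.11 without it (adjusted p = 0.00124, 0.0177 and 0.0279). The ratios that ranked the 15 genes also used the mean of all embryos, so a higher EtOH level could raise a ratio. The counts of 4 higher and 0 lower are therefore a description and no result about these genes.

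The cell cycle genes named for this comparison were not called either. Top2a had a log2 fold change of 0.21 ± 0.44 and Mki67 of -0.61 ± 0.25 (edgeR adjusted p = 0.824 and 0.187). They were 0.19 ± 0.50 and -0.66 ± 0.28 without the library labelled S2-4 (adjusted p = 0.841 and 0.139). The batches differed in direction for Top2a, which was called higher in batch 1 alone (1.57, adjusted p = 0.00245) and lower in batch 2 without that library (-0.89, adjusted p = 0.0279), a setting chosen after seeing the data. Mki67 was 0.26 in batch 1 (adjusted p = 0.622) and was called lower in batch 2 without that library (-1.31, adjusted p = 1.53e-04). Within a batch each treatment came from a single dam, so treatment could not be told apart from dam in these fits. Of 19 apoptosis and p53 genes tested with all embryos and 18 without the library labelled S2-4, 0 were called, beside 0.00927% and 14% of all genes, and their median log2 fold change was 0.01, beside 0.01 over all genes tested.

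Without the library labelled S2-4, 1498 of 10711 genes were called (14.0%), of which 947 were higher (8.84%) and 551 lower (5.14%). Levels did not overlap between the remaining 4 saline and 6 EtOH embryos for 12.5% of genes. Leaving out any other single embryo left 0 or 1 gene called. Because the library labelled S2-4 was left out for its likeness to the EtOH embryos, these counts and shares are a description. The higher genes had a median span of 16.4 kb and the lower genes of 121 kb, beside 31.9 kb over the genes tested. Of the higher genes, 71.2% overlapped a gene on the other strand and 63.3% were protein-coding, beside 51.1% and 92.4% of the genes tested. Among genes under 10 kb, 18.2% were higher and 1.77% lower, and among genes over 100 kb 3.67% were higher and 14.3% lower. The direction of a call thus went with the length of the gene, in a comparison in which depth per nucleus and the share of UMIs from long genes also differed between the groups, and the part of these in the calls was not tested.

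In the edgeR fit with all 11 embryos, no gene of the 23 lists was called. Other methods called more genes on the same embryos, such as 416 over all genes with DESeq2. The lists are described by their counts at an unadjusted p under 0.05, by their calls without the library labelled S2-4 and by their medians. The same values over all genes are given beside them. Genes of presynaptic terminals and glutamate receptors had the largest share of lower genes among the lists with at least 10 genes tested. Of 37 tested, 1 was higher (2.70%) and 17 lower (45.9%) at an unadjusted p under 0.05, beside 11.7% and 9.57% of all genes, with a median log2 fold change of -0.27. Without the library labelled S2-4, 0 were called higher and 18 lower (48.6%), beside 8.84% and 5.14% of all genes, with a median of -0.35, beside 0.0034. The 18 genes included the adhesion genes Nrxn3, Nlgn1 and Cntnap2, the vesicle release genes Syt1, Rims1, Rims2 and Pclo, and the glutamate receptors Gria2, Gria4, Grik1, Grik2, Grm5 and Grm7. All 18 span over 100 kb, as do 24 of the 37.

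Grik1, a kainate receptor subunit, had 36.1, 39.2, 65.3 and 45.1 CPM in the other 4 saline libraries, 19.7 CPM in the library labelled S2-4, and between 7.09 and 17.7 CPM in the EtOH embryos. The library labelled S2-4 was the lowest saline library, and the groups did not overlap. The log2 fold change of Grik1 was -1.86 ± 0.33 with all embryos (edgeR adjusted p = 0.0596) and -2.04 ± 0.23 without that library (adjusted p = 1.48e-05). The summed level of the 38 genes was 15036 to 15918 CPM in the other saline libraries, 10461 CPM in the library labelled S2-4 and 10480 to 12580 CPM in the EtOH embryos.

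Some interneuron markers were lower too, although these nuclei are not interneurons. The summed level of these markers was 842, 660, 1216 and 648 CPM in the other 4 saline libraries, 332 CPM in the library labelled S2-4 and 196 to 521 CPM in the EtOH embryos, beside 27465 CPM in the interneuron Cluster 5. Of 16 markers, 8 were tested without the library labelled S2-4, and Gad2, Erbb4 and Maf were called lower (37.5%, beside 5.14% of all genes). Maf had 6.05 to 8.18 CPM in saline and 0 to 3.82 CPM in EtOH embryos. Maf thus passed the filter on low counts through its saline level, and its part in this share is a description. Gad2 was found in 10.8% of thinned Cluster 6 nuclei in saline and 5.43% in EtOH embryos. The presynaptic and glutamate receptor genes summed to 57305 CPM in Cluster 5, and the part of free RNA in their difference was not tested. Cajal-Retzius markers, those of an early-born neuron of the marginal zone, summed to 306 to 581 CPM in the other saline libraries, 226 CPM in the library labelled S2-4 and 177 to 281 CPM in the EtOH embryos, and 2 of 3 tested were lower at an unadjusted p under 0.05, beside 9.57% of all genes, with a median log2 fold change of -0.78. None of the 3 was called without the library labelled S2-4. Erythroid genes summed to 10.3 to 169 CPM in the other saline libraries, 76.9 CPM in the library labelled S2-4 and 26.6 to 62.7 CPM in the EtOH embryos. The part of these cells' RNA in the results was not tested. Microglia, endothelial, meningeal, pericyte and oligodendrocyte precursor markers summed to at most 41.0 CPM in any embryo for any of these lists. Microglia markers had means of 16.2 CPM in saline and 25.7 CPM in EtOH embryos, and meningeal and pericyte markers of 20.3 and 9.42 CPM. The only microglia marker tested, the chemokine receptor Cx3cr1, was called higher without the library labelled S2-4 (log2 fold change 0.95 ± 0.22, edgeR adjusted p = 0.00535). Cx3cr1 alone had means of 9.33 CPM in saline and 15.9 CPM in EtOH embryos. It overlaps Wdr48, Ttc21a and other genes on the other strand, and whether they shared reads was not tested.

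**Figure D5:**
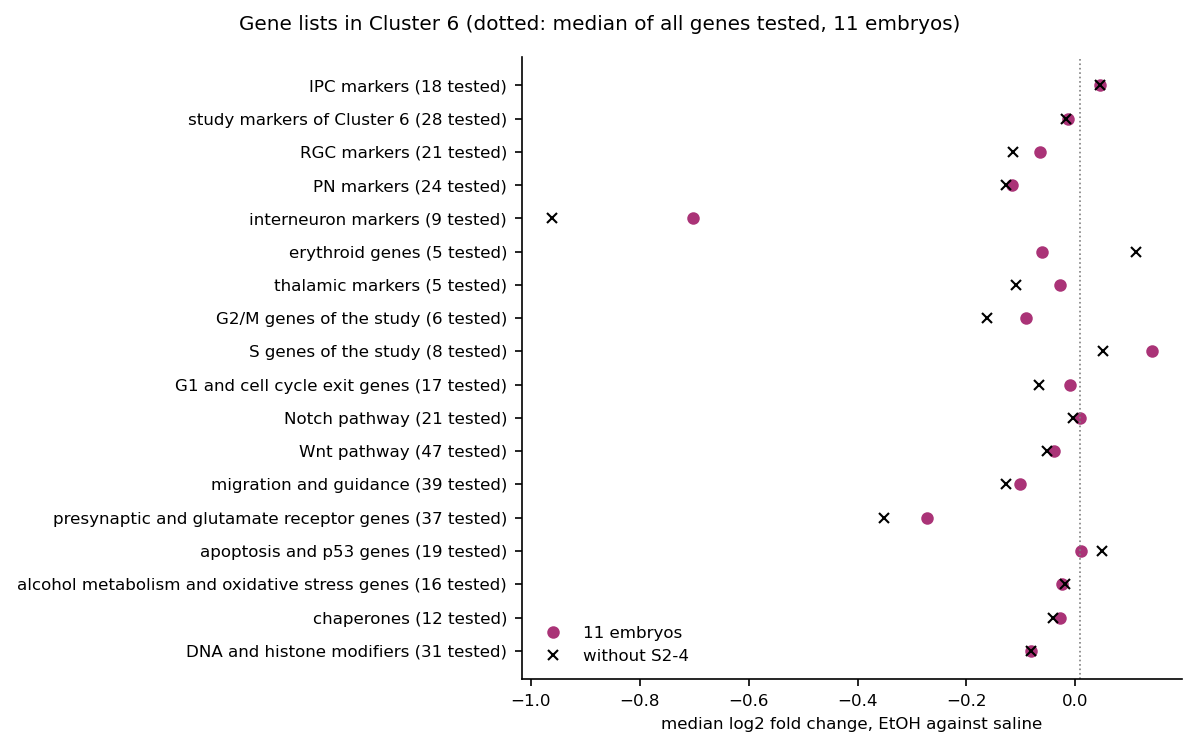
Median log2 fold change, EtOH against saline, of the gene lists with at least 5 genes tested in Cluster 6, with all 11 embryos (circles) and without the library labelled S2-4 (crosses). The dotted line is the median of all genes tested, 0.01. Interneuron markers (-0.70) and presynaptic and glutamate receptor genes (-0.27) lie furthest to the left.

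Among genes of neuronal migration and axon guidance, of 39 tested, 3 were higher (7.69%) and 10 lower (25.6%) at an unadjusted p under 0.05, beside 11.7% and 9.57% of all genes. Without the library labelled S2-4, the reelin receptor gene Lrp8 was called higher, and Dcc, Sema6a, Robo1, Dab1, Vldlr, Dclk1 and Fat4 lower, which made 2.56% higher and 17.9% lower, beside 8.84% and 5.14% of all genes. Dcc, the netrin receptor and the most abundant of these, had 18840, 21455, 25556 and 23464 CPM in the other 4 saline libraries, 15572 CPM in the library labelled S2-4 and 14761 to 18207 CPM in the EtOH embryos. Vldlr, a second reelin receptor, had 11.4, 14.2, 23.8 and 13.1 CPM, then 7.66 CPM, and 3.94 to 8.64 CPM, in the same order.

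Genes of the Wnt pathway went in both directions. Of 47 tested, 4 were higher (8.51%) and 8 lower (17.02%) at an unadjusted p under 0.05, beside 11.7% and 9.57% of all genes, with a median log2 fold change of -0.04. Without the library labelled S2-4, Ctnnb1 (the transcriptional effector beta-catenin), the receptor Lrp5 and the ligand Wnt7b were called higher, and the secreted Wnt enhancers Rspo2 and Rspo3, their receptor Lgr4, the Wnt carrier Wls and Prickle2 lower. Rspo2 had 12.4, 12.3, 22.9 and 51.7 CPM in the other 4 saline libraries, 6.66 CPM in the library labelled S2-4 and 0.985 to 5.22 CPM in the EtOH embryos. Wnt7b had 21.3, 21.5, 22.5 and 28.7 CPM, then 40.3 CPM, and 23.6 to 54.1 CPM. Of the 48 tested in that fit, 6.25% were called higher and 10.4% lower, beside 8.84% and 5.14% of all genes. Without the library labelled S2-4, Rspo2 passed the filter on low counts through its saline level, so its call is a description. The paper uses Rspo2 as a marker of the cortical hem RGCs of Cluster 21. S1-1, S1-2, S2-1, S2-2 and S2-4 held 66, 47, 45, 206 and 90 nuclei of that cluster, and the EtOH embryos 3 to 45. These are counts and not shares, and a lower count here is not a lower share. Over all clusters the saline embryos held 4437 to 7639 nuclei and the EtOH embryos 2346 to 4928. The part of free RNA from Cluster 21 cells in the Rspo2 levels of Cluster 6 was not tested.

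Progenitor and neuronal identity genes were called in part, and the shares below stand beside 8.84% of all genes called higher and 5.14% lower without the library labelled S2-4. Of 18 IPC markers tested, the somatostatin receptor Sstr2 and Gadd45g were called higher (11.1%) and the helix-loop-helix factor Nhlh2 lower (5.56%), and the median log2 fold change was 0.05 with all embryos. Gadd45g had 66.7, 79.3, 70.0 and 64.0 CPM in the other 4 saline libraries, 105 CPM in the library labelled S2-4 and 76.8 to 119 CPM in the EtOH embryos. Of 24 PN markers, 0 were called higher and Neurod2, Fezf2, Map2 and Gap43 lower (16.7%), with a median of -0.12. Neurod2 had 99.1, 118, 115 and 112 CPM, then 70.6 CPM, and 75.8 to 96.6 CPM. Of 21 RGC markers, Notch1 was called higher and Ptprz1 lower (4.76% each), and Notch1 was the only call among 21 Notch pathway genes.

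The lists on the cell cycle and on the response to alcohol had 0 to 2 calls each without the library labelled S2-4, beside 8.84% of all genes called higher and 5.14% lower. Of 6 G2/M and 8 S phase genes tested, 0 and 1 (the helicase subunit Mcm7, higher, 12.5%) were called, and of 17 genes of G1 and cell cycle exit 1 (Btg3, higher, 5.88%). Of 16 genes of alcohol metabolism and oxidative stress, the mitochondrial aldehyde dehydrogenase Aldh1b1 was called higher (6.25%), with 40.5, 42.0, 34.2 and 50.9 CPM in the other 4 saline libraries, 64.6 CPM in the library labelled S2-4 and 57.1 to 88.6 CPM in the EtOH embryos. Of 12 chaperones, Hsp90aa1 and Hsph1 were called lower (16.7%). Of 31 genes of DNA and histone modification, 0 were called in either fit, and their median log2 fold change was -0.08.

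Whether the response to alcohol was particular to Cluster 6 was tested as a difference between log2 fold changes, with the embryo as a block. Against the mitotic IPC Cluster 17, 1 of 10453 genes was called at an adjusted p under 0.05 (0.00957%). It was Nim1k, a protein kinase gene, with a difference of -1.92 ± 0.35 (edgeR adjusted p = 0.0494). The call was kept in 2 of the 11 fits that left out 1 embryo, with adjusted p up to 0.367 and differences of -2.26 to -1.75, and 0 genes were called among those with a mean of at least 20 counts. In Cluster 6 Nim1k went from 13.1 ± 3.71 CPM in saline to 6.06 ± 2.33 CPM in EtOH embryos and the groups did not overlap, and in Cluster 17 it went from 14.8 ± 5.06 to 27.5 ± 8.62 CPM. At an unadjusted p under 0.05, 580 genes passed. Without the library labelled S2-4, 1 gene was called (0.00952%).

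Against the early PN Cluster 9, 8 of 10335 genes were called (0.0774%), all with a higher log2 fold change in Cluster 6. They were Gli3, Slit1, Adgrv1, Zeb1, Prkd1, Hells, Tmem132b and Tox3. With 1 embryo left out, 2 to 48 genes were called, some of them lower in Cluster 6 in 5 of the 11 fits. Gli3 and Slit1 were called in all 11 such fits, Adgrv1 in 10, Zeb1 in 6, Prkd1 in 4 and the other 3 genes in 2 each. Gli3, a transcription factor of Hedgehog signalling in RGCs, went from 334 ± 24.95 to 338 ± 43.9 CPM in Cluster 6 and from 136 ± 31.2 to 83.4 ± 12.2 CPM in Cluster 9 (difference 0.68 ± 0.11, edgeR adjusted p = 0.00397). Slit1, a secreted guidance cue, went from 134 ± 55.3 to 130 ± 16.99 CPM in Cluster 6 and from 24.8 ± 6.73 to 10.0 ± 3.83 CPM in Cluster 9 (1.31 ± 0.22, adjusted p = 0.00397). The log2 fold changes of Gli3 and Slit1 were -0.75 and -1.30 in Cluster 9 and -0.05 and -0.09 in Cluster 6.

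Adgrv1, a large adhesion receptor, Zeb1, a repressor of neuronal polarity genes in progenitors, and Prkd1, a protein kinase, had differences of 1.53 ± 0.22, 0.51 ± 0.10 and 0.66 ± 0.13 (edgeR adjusted p = 0.0112, 0.0162 and 0.0285). Their Cluster 9 levels went from 82.2 to 27.4, from 171 to 107 and from 84.7 to 54.3 CPM, while their Cluster 6 log2 fold changes were -0.13, -0.25 and -0.04. The summed level of 24 RGC markers in Cluster 9 was 1153 ± 118 CPM in saline and 900 ± 99.5 CPM in EtOH embryos, and 2201 ± 151 and 2264 ± 249 CPM in Cluster 6. Gli3 is among these 24 markers, so the sum is not separate from the call of Gli3. In the library labelled S2-4 the Cluster 9 sum was the lowest of the saline embryos, 962 CPM. Without that library, 48 genes were called against Cluster 9 (0.462%), 36 of them higher in Cluster 6.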

How the data were processed

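Nuclei of E14 mouse cortex were sequenced with 10x Genomics 3′ chemistry. The authors aligned the reads with Cell Ranger to mm10 (the submitters' processing notes give no version), filtered nuclei and genes in Seurat, assigned clusters and deposited raw UMI counts per gene and nucleus, 1 table per embryo and cluster. All 275 tables read held whole counts for 23513 genes. Doublets were not called here. In all, 314 of 50226 barcode sequences occurred in 2 or more libraries, and 41 Cluster 6 nuclei shared one with another library.

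Counts were summed per embryo over the nuclei of Cluster 6 (957480 to 5259037 UMIs) and tested with edgeR 4.0.16 (TMM, filterByExpr, robust quasi-likelihood, no covariate), with DESeq2 1.42.0 and limma 3.58.1 as alternatives. Interactions used the embryo as a block. The test script was checked on simulated data. Values per embryo were compared by two-sided exact permutation tests, over 462 splits or 210 within batches. CPM were computed from the deposited counts. Positions of genes and promoter sequences came from the reference tables (GRCm38.p6, RefSeq for promoters).

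The members and lists were chosen with earlier results of these data known. Genes named were those given for this comparison (Kif26b, Eomes, Mfap4, Top2a and Mki67), called genes, up to 15 per direction, called list genes, the 15 genes most specific to Cluster 6, up to 5 genes per direction in each interaction, and a fixed set along the position. Other genes were picked after their values were seen, including the list genes called only without the library labelled S2-4. A few genes are not reported here.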

Additional observations from a re-analysis of the deposited data

Results flagged for a closer look

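Values that stood far from the rest of their group were found in 11 of 92 groups of 5 or 6 embryos. In saline embryos, the library labelled S2-4 stood apart for Kif26b (1527 CPM), Gm26699 (55.3 CPM), Slc24a5 (220 CPM), Fndc7 (33.3 CPM), Gm42439 (372 CPM), Gm15563 (237 CPM), Gm19710 (195 CPM) and Sox11 (369 CPM). All of these but Kif26b were chosen after their values were seen. S2-2 stood apart for Gm38399 (99.7 CPM). In EtOH embryos, E1-2 stood apart for Kcnma1 (33.4 CPM) and Lzts1 (736 CPM).

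The difference between log2 fold changes in Cluster 6 and another cluster passed its test for 9 genes. Against Cluster 17 it was -1.92 for Nim1k, which was called in 2 of the 11 fits that left out 1 embryo. Against Cluster 9 it was 0.68 for Gli3, 1.31 for Slit1, 1.53 for Adgrv1, 0.51 for Zeb1, 0.66 for Prkd1, 1.20 for Hells, 1.09 for Tmem132b and 1.18 for Tox3. Gli3 and Slit1 were called in 11 of 11 such fits, Adgrv1 in 10, Zeb1 in 6, Prkd1 in 4, and Hells, Tmem132b and Tox3 in 2 each. Hells, Tmem132b and Tox3 were named after their values were seen.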

How the results depend on the processing

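The count of 1 called gene (1 higher, 0 lower) moved with most settings, and the cause was not tested. DESeq2 called 416 genes (245 higher, 171 lower), no filter on low counts 521 (222 and 299), counts summed per dam 227 (102 and 125), limma's voom, the dam being a random effect, 297 (245 and 52), thinning to the smallest total 80 (53 and 27) and nuclei thinned to 2000 UMIs 23 (13 and 10). Batch 1 alone gave 896 (472 and 424), and batch 2 alone 0, with 1081 at an unadjusted p under 0.05. Within a batch each treatment came from a single dam, so treatment could not be told apart from dam there. Leaving out 1 embryo gave 0 to 1498 genes (0 to 947 higher, 0 to 551 lower), and only leaving out S2-4 gave more than 1.

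Settings chosen after seeing the data left out S2-4 together with another change. They called 1492 genes with batch as a covariate (891 higher, 601 lower), 1414 with DESeq2 (830 and 584), 1347 with voom (861 and 486), 1036 in batch 2 alone (560 and 476) and 775 with nuclei thinned (426 and 349). With log2 median UMIs per nucleus as a covariate, also added, edgeR called 0 genes (0 higher), with 379 at an unadjusted p under 0.05. This covariate itself moved with treatment, so the fit cannot separate depth from treatment.

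The Top2a or Mki67 share differed by -3.54 percentage points between the group means. With labels exchanged only within batches, the exact permutation p was 0.0429. Without thinning the difference was -15.2 (exact permutation p = 0.00216). Depth per nucleus, which was lower in EtOH embryos, was not held equal in that setting, so it is no stronger form of the result. Leaving out 1 embryo gave -4.94 (without S1-2, exact permutation p = 0.00476) to -2.24 (without S2-2, exact permutation p = 0.129). For mean position it gave -0.0280 (without E2-4, exact permutation p = 0.0238) to -0.0165 (without E2-1, exact permutation p = 0.159). The interaction count against Cluster 17 was 0 with a mean of at least 20 counts and 0 to 1 with 1 embryo left out, and against Cluster 9 it was 2 to 48.

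Log2 fold changes that turned direction were of genes not called with all embryos, of which Nhlh2, Gadd45g, Notch1, Neurod2 and Gap43 were called without S2-4. Kif26b was 0.013 with nuclei thinned, 0.050 with S2-4 left out too, and 0.043 in batch 2 without S2-4. Mfap4 was 0.045 with the total thinned, 0.057 with nuclei thinned and 0.027 with the UMI covariate, and -0.12 to 0.059 with 1 embryo left out, the highest without S2-2. Top2a was -0.012 with voom, -0.61 with nuclei thinned, -0.66 with S2-4 left out too, -0.75 in batch 2, -0.89 in batch 2 without S2-4 (called, edgeR adjusted p = 0.0279), -0.88 with the UMI covariate, and -0.15 to 0.38 with 1 embryo left out, the lowest without E1-1. Mki67 was 0.26 in batch 1. With the UMI covariate, which moved with treatment, Nhlh2 was 0.068, Gadd45g -0.12, Notch1 -0.058, Neurod2 0.0038 and Gap43 0.028. No paired analysis was possible because sample numbers restart within each dam and name embryos of different dams.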
